A study of Mus musculus with 83 samples.

Results

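Rhythmic contraction of the gut wall depends on interstitial cells that sit between the enteric nerves and the smooth muscle. Interstitial cells of Cajal are the pacemakers: they need the receptor tyrosine kinase KIT and its ligand to survive, they express the transcription factor ETV1 downstream of KIT, and the calcium-activated chloride channel ANO1 carries their pacemaker current. A sister population marked by the receptor PDGFRA relaxes the muscle: it senses ATP-like transmitters through the receptor P2RY1 and answers by opening the small-conductance potassium channel KCNN3. Not all of these genes are restricted to the cell they are known for, since mast cells also carry KIT, fibroblasts carry PDGFRA and epithelial cells can carry ANO1.

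The 7 genes described here are Kit, Kitl, Ano1 and Etv1 of the Cajal cell group and Pdgfra, Kcnn3 and P2ry1 of the PDGFRA cell group. They were chosen by name, as the rows with these symbols among the 37764 genes of the count table, and each symbol matched 1 row. The counts are RNA-seq read pairs per gene from the colon of 83 male C57BL/6J/Ukj mice, numbering 16, 16, 16, 17 and 18 at the ages of 3, 9, 15, 24 and 28 months. No treatment of these mice is described, and the samples came from a larger study of several variables. RNA was taken from the proximal section of the colon as bulk tissue, and the libraries were made in 3 batches that each held mice of every age. In such tissue, fewer cells of a type and less RNA per cell cannot be told apart.

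In the GRCm38 annotation, Kit (chr5:75574916-75656722, plus strand) and Pdgfra (chr5:75152292-75198215, plus strand) are neighbours on chromosome 5, and Kcnn3 (chr3:89520164-89675132, plus strand) and P2ry1 (chr3:61002795-61008982, plus strand) both lie on chromosome 3. Kitl is at chr10:100015630-100100416 on the plus strand, Ano1 at chr7:144588549-144751974 on the minus strand and Etv1 at chr12:38779380-38870484 on the plus strand. The counts were made by strand, so that the antisense genes that overlap Ano1, Pdgfra and P2ry1 were counted apart. The only gene that overlaps one of the 7 on its own strand is the microRNA gene Mir7025 inside Pdgfra.

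Depth was 23026370 to 75838290 read pairs on genes, with a median of 35495123, and even the least expressed of the 7 had at least 155 counts in every mouse. Markers of smooth muscle, enteric neurons, glia, epithelium and immune cells were all detected in the tissue. A smooth muscle score, the mean log2 CPM (counts scaled by library size) of 9 contractile genes, had a median of 8.51 and was under 8 in 8 libraries (6.36 to 7.82), while the lowest of the other 75 was 8.13. The limit of 8 was chosen after the scores were seen, and gaps as wide lie within the 8. These 8 libraries were replicates 7, 10, 12 and 16 at 3 months, replicates 4, 6 and 13 at 9 months and replicate 12 at 28 months. No library at 15 or 24 months was among them, so that the changes at 24 and 28 against 3 months are also given without these libraries.

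Per length, as TPM (counts scaled by exon length and library size), the 7 genes fell into a high and a low set. Kitl had the highest mean level at 62.7 TPM ± 8.51 (SD, n = 83), followed by Kit at 52.3 TPM ± 7.11 and Ano1 at 42.6 TPM ± 6.57. P2ry1 followed at 38.8 TPM ± 4.54 and Pdgfra at 23.6 TPM ± 3.39. Kcnn3 at 3.69 TPM ± 0.86 and Etv1 at 3.05 TPM ± 0.633 were lower than these 5 in every mouse. The highest Kcnn3 value in any mouse was 5.95 TPM, and the lowest Pdgfra value was 14.2 TPM.

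The genes of the low set also had the largest SD between mice of the same age and batch. The SD of log2 CPM between such mice was 0.36 for Kcnn3 and 0.28 for Etv1, which is above the SD of 89.3% and 79.7% of the 14962 genes tested whose mean was at least 1 CPM. It was 0.14 for P2ry1, 0.16 for Kitl, 0.17 for Kit, 0.20 for Ano1 and 0.21 for Pdgfra, beside a median of 0.16 over those genes. Without the 8 libraries the SD was 0.22 for Kcnn3 and 0.20 for Etv1, above 69.6% and 64.4% of the genes, beside 0.20 for Pdgfra and 0.19 for Ano1. The levels of each mouse are drawn in the plot by age.

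**Figure D1:**
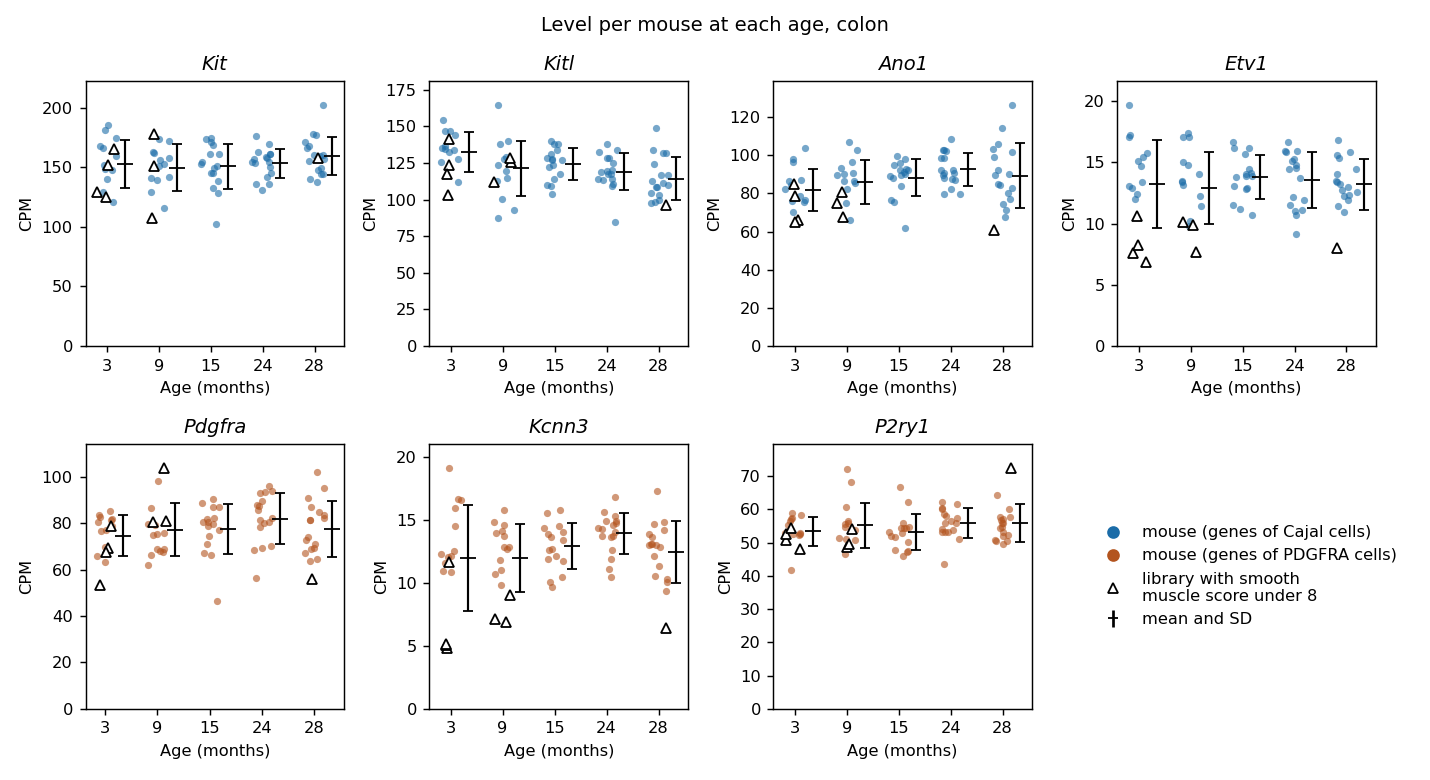
CPM (vertical axis, from 0) of each of the 7 genes in every mouse at 5 ages in months (horizontal axis), with Cajal cell genes in blue, PDGFRA cell genes in brown, and the mean and SD of each age beside the points. Open triangles are the 8 libraries with a smooth muscle score under 8, which lie low in the panels of Etv1 and Kcnn3 but are spread through those of Kit and Kitl, and the Kitl mean is lower at 28 months (114 CPM) than at 3 months (132 CPM).

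The comparison over age asked whether any of the 7 genes changed along the lifespan. Kitl, the ligand of KIT, was lower in old mice and Ano1 was higher at 24 months, while Kit, Etv1, Pdgfra, Kcnn3 and P2ry1 passed the threshold in no comparison of the model with age and batch over all mice. Under other settings Etv1 and Kcnn3 did so, as given with their values. The call of Ano1 at 24 months was lost without the 8 libraries low in smooth muscle and with the smooth muscle score as a covariate. A gene was called at a Benjamini-Hochberg adjusted p below 0.1 over all 18325 genes tested (edgeR quasi-likelihood F-test, batch in the model). Over the 5 ages together, 1 of the 7 genes was called, beside 54.9% of all genes tested. For a straight line in age, 2 of the 7 were called, beside 53.2% of all genes, and for a departure from that line, 0 of the 7, beside 16.2%.

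In the pairs of ages, 28 against 3 months called 1 of the 7 genes, beside 49.4% of all genes (23.5% higher and 25.9% lower). At 24 against 3 months, 2 of the 7 were called, beside 34.5%. In neither pair was the share of the 7 above the background. In the other 8 pairs, 0 of the 7 were called by edgeR, with or without the 8 libraries, or by DESeq2, and at an unadjusted p under 0.05 there was 1 such gene at 9 against 3 months (Kitl) and 0 elsewhere. The background was 8.69% for 9 against 3 months, 7.75% for 15 against 3 months, 0.431% for 15 against 9 months, 15.5% for 24 against 9 months and 40.0% for 28 against 9 months. It was 13.5% for 24 against 15 months, 42.4% for 28 against 15 months and 11.7% for 28 against 24 months.

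Kitl encodes stem cell factor, the ligand that KIT needs. Its level was 103 to 154 CPM (median 134) at 3 months, 87.3 to 165 CPM (median 125) at 9 months and 104 to 140.3 CPM (median 127) at 15 months. It was 84.5 to 138 CPM (median 119) at 24 months and 96.5 to 149 CPM (median 111) at 28 months. The ranges overlapped at every age, but 17 of 18 mice at 28 months and 16 of 17 at 24 months lay under the median of the 3-month mice, and 5 of the 28-month mice lay under the lowest 3-month mouse. Mean Kitl was 132 CPM ± 13.6 (SD, n = 16) at 3 months and 114 CPM ± 14.7 (n = 18) at 28 months, so that the mean fell by 13.7%.

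The log2 fold change of Kitl was -0.20 (SE 0.055, adjusted p = 0.0025) at 28 against 3 months and -0.15 (SE 0.056, adjusted p = 0.0359) at 24 against 3 months. Its level followed a line with a slope of -0.0066 per month on the log2 scale (SE 0.0019, adjusted p = 0.00281), and the test over the 5 ages passed too (adjusted p = 0.0248). No departure from the line was detected (adjusted p = 0.709). Ordered by their means, the ages ran from 28 months at the bottom through 24, 9 and 15 to 3 months at the top. No neighbouring pair in that order was called (lowest adjusted p = 0.425), but such pairs have close means by the way they were picked. Without the 8 libraries low in smooth muscle, the values were -0.21 (adjusted p = 0.00445) at 28 months and -0.18 (adjusted p = 0.0263) at 24 months. Within the 3 library batches, Kitl differed by -0.043 (SE 0.11), -0.21 (SE 0.073) and -0.33 (SE 0.084) at 28 against 3 months, lower in each, and whether the batches differ was not tested.

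Kit, the receptor, was called in no pair of ages. Its level was 121 to 185 CPM (median 152) at 3 months, 108 to 178 CPM (median 152) at 9 months and 103 to 175 CPM (median 152) at 15 months. It was 131 to 177 CPM (median 155) at 24 months and 137 to 202 CPM (median 159) at 28 months. The ranges of all ages overlapped widely, and 12 of 18 mice at 28 months were above the 3-month median. The fold change of Kit at 28 against 3 months was 0.064 (95% interval -0.048 to 0.17, adjusted p = 0.371), and over all 10 pairs of ages no interval reached beyond 0.21 in size. Leaving out the 8 libraries gave 0.048 (adjusted p = 0.558) at 28 months and -0.0089 (adjusted p = 0.943) at 24 months. The difference between the changes of Kit and Kitl was not tested.

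Other cells of the gut wall carry KIT too, among them mast cells and the deep crypt secretory cells of the colon. Of 12 mast cell markers 6 passed the filter on low counts, and since genes this low can pass through the ages at which they are high, their calls are not counted here. The summed level of all 12 was 2.05 to 9.02 CPM (median 3.89) at 3 months and 3.59 to 47.5 CPM (median 8.59) at 28 months, far under the level of Kit, and no marker was at 0 in all mice. Over the 75 mice outside the 8 libraries, the mast cell score and Kit had an r of -0.13 within age and batch (rho -0.20, adjusted permutation p = 0.359 for r and 0.177 for rho). Of 5 deep crypt secretory markers, 1 was called higher and 3 lower at 28 months, beside 25.9% of all genes lower, with a summed level of 18569 to 24471 CPM at 3 months and 17135 to 21495 CPM at 28 months. Most of this sum was 1 gene, Muc2, with a mean of 18447 CPM over all mice beside 133 CPM for Reg4. The score of the 5 markers and Kit had an r of -0.23 (rho -0.31, adjusted permutation p = 0.0907 for r and 0.024 for rho, batches -0.23, -0.42 and -0.019, without the 2 farthest mice -0.32). The part of either cell type in the level of Kit was not tested.

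Ano1 encodes the chloride channel of the pacemaker current. Its level was 65.2 to 104 CPM (median 80.5) at 3 months, 66.3 to 107 CPM (median 86.4) at 9 months and 61.6 to 99.7 CPM (median 90.6) at 15 months. It was 79.5 to 108 CPM (median 90.8) at 24 months and 60.8 to 126 CPM (median 87.3) at 28 months. At 24 months 15 of 17 mice were above the 3-month median and none was under the lowest 3-month mouse, while the 28-month mice spread over a wider range at both ends. Mean Ano1 was 81.9 CPM ± 10.97 (SD, n = 16) at 3 months, 92.5 CPM ± 8.49 (n = 17) at 24 months and 89.2 CPM ± 16.9 (n = 18) at 28 months.

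The fold change of Ano1 was 0.18 (SE 0.069, adjusted p = 0.0446) at 24 against 3 months and 0.12 (SE 0.068, adjusted p = 0.132) at 28 against 3 months, with a slope of 0.0056 per month (SE 0.0023, adjusted p = 0.0391). Without the 8 libraries low in smooth muscle, the call at 24 months was lost at 0.14 (adjusted p = 0.164), and the slope of 0.0047 per month stayed past the threshold (adjusted p = 0.0918). With the smooth muscle score as a covariate both calls were lost, with 0.093 (adjusted p = 0.367) at 24 months and a slope of 0.0033 per month (adjusted p = 0.223). Ano1 was 60.8 to 84.7 CPM in those 8 libraries. In the mice of 24 against those of 3 months, 5 of 9 smooth muscle markers and 5 of 7 endothelial markers were also called higher, beside 16.7% of all genes, and 2 and 5 were so without the 8 libraries (beside 2027 of 18427 genes higher and 10.2% lower). The summed level of the smooth muscle markers was 943 to 5682 CPM (median 3921) at 3 months and 3497 to 5830 CPM (median 4803) at 24 months. At 24 against 3 months the batches gave 0.15 (SE 0.13), 0.23 (SE 0.076) and 0.15 (SE 0.13), higher in each. No neighbouring ages in the order of the means (3, 9, 15, 28 and 24 months) were called, but such pairs have close means by the way they were picked.

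Etv1, a lineage transcription factor of Cajal cells, had similar medians at all ages. It was 6.84 to 19.7 CPM (median 13.2) at 3 months, 7.66 to 17.4 CPM (median 13.3) at 9 months and 10.7 to 16.6 CPM (median 13.9) at 15 months. It was 9.17 to 16.7 CPM (median 14.4) at 24 months and 8.01 to 16.8 CPM (median 13.1) at 28 months. The 3-month mice covered the whole range of the 28-month mice, and 9 of 18 of the latter lay on either side of the 3-month median. The fold change at 28 against 3 months was 0.013 (95% interval -0.18 to 0.20, adjusted p = 0.927) with all mice and -0.11 (adjusted p = 0.247) without the 8 libraries, in which Etv1 was 6.84 to 10.6 CPM. At 24 against 3 months it was 0.028 (adjusted p = 0.863) with all mice and -0.14 (adjusted p = 0.205) without the 8 libraries. With the smooth muscle score as a covariate, it was -0.18 at 24 against 3 months and passed the threshold (adjusted p = 0.0384).

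Pdgfra, the receptor that marks the second cell population, was 53.2 to 85.1 CPM (median 77.9) at 3 months, 56.5 to 96.0 CPM (median 82.5) at 24 months and 56.2 to 102 CPM (median 77.7) at 28 months. Its ranges at 9 and 15 months, 62.0 to 104 and 46.5 to 90.3 CPM, overlapped with these. At 24 months 8 of 17 mice were above the highest 3-month mouse, yet the fold change of 0.13 (95% interval -0.0066 to 0.28) did not pass the threshold (adjusted p = 0.152). At 28 against 3 months it was 0.058 (95% interval -0.081 to 0.20, adjusted p = 0.524). Without the 8 libraries, in which Pdgfra was 53.2 to 104 CPM, the values were 0.096 (adjusted p = 0.368) at 24 months and 0.050 (adjusted p = 0.602) at 28 months.

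Kcnn3, the potassium channel that PDGFRA cells open, had its widest spread in young mice. It was 4.79 to 19.1 CPM (median 12.1) at 3 months, 6.92 to 15.8 CPM (median 12.7) at 9 months and 9.66 to 15.8 CPM (median 13.05) at 15 months. It was 10.4 to 16.8 CPM (median 14.3) at 24 months and 6.41 to 17.3 CPM (median 13.02) at 28 months. The SD was 4.21 CPM at 3 months and 1.64 CPM at 24 months, and all mice at 24 and 28 months lay within the 3-month range. Without the 8 libraries, in which Kcnn3 was 4.79 to 11.7 CPM, the SD at 3 months was 2.71 CPM.

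The fold change of Kcnn3 at 24 against 3 months was 0.22 (95% interval -0.0095 to 0.46, adjusted p = 0.149) with all mice and 0.026 (adjusted p = 0.869) without the 8 libraries. At 28 against 3 months the values were 0.054 (95% interval -0.18 to 0.29, adjusted p = 0.736) and -0.097 (adjusted p = 0.358), which turns the sign. Kcnn3 passed the threshold at 24 against 3 months with the replicate number as a block (0.28, adjusted p = 0.0748) and at 24 against 9 months in a fit of those ages alone. With the smooth muscle covariate its value at 24 against 3 months was -0.019 (adjusted p = 0.891). Of the 7 genes Kcnn3 had the widest intervals, with a largest bound of 0.46 over the 10 pairs of ages.

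P2ry1, the purine receptor upstream of that channel, had the lowest spread of the 7 genes on the log2 scale. It was 41.8 to 59.0 CPM (median 52.9) at 3 months and 49.5 to 72.5 CPM (median 55.3) at 28 months, with 43.5 to 72.1 CPM over the ages between. The ranges of the 3-month and 28-month mice overlapped, with 3 of 18 of the latter above the highest 3-month mouse. The fold change at 28 against 3 months was 0.073 (95% interval -0.021 to 0.17, adjusted p = 0.214), and no interval in the 10 pairs of ages reached beyond 0.18 in size. It was 0.044 (adjusted p = 0.532) without the 8 libraries, and at 24 against 3 months it was 0.065 (adjusted p = 0.328) with all mice and 0.055 (adjusted p = 0.509) without them. The median change of the 7 genes at 28 against 3 months was 0.058, beside -0.0087 over all genes tested.

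**Figure D2:**
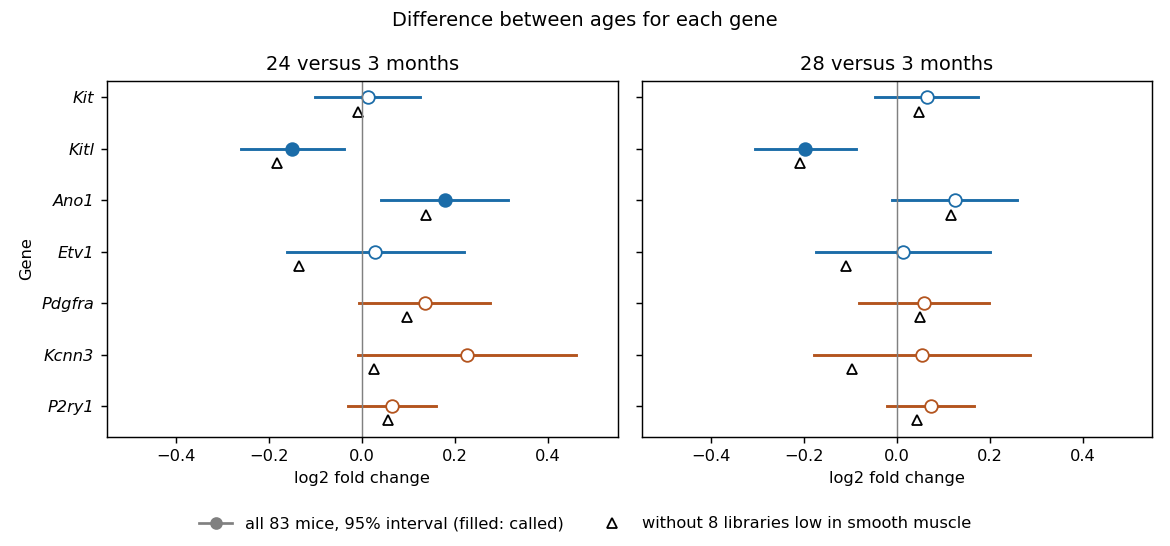
Log2 fold change (horizontal axis) of each gene (rows) at 24 against 3 months (left) and 28 against 3 months (right), as points with 95% intervals over all 83 mice, filled where called, and as open triangles without the 8 libraries low in smooth muscle. Kitl is called in both panels (-0.15 and -0.20) and Ano1 only at 24 months (0.18), and the triangles of Etv1 and Kcnn3 lie to the left of their points.

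Whether the 7 genes rise and fall together was asked among mice of the same age, on log2 CPM after removal of the means of age and batch. Etv1 and Kcnn3, which are listed here for different cell populations, formed the closest pair, while for P2ry1 and Kitl the highest coefficient was the one with each other. Among the marker scores given below, both Etv1 and Kcnn3 varied most with that of enteric neurons. Over all 83 mice 12 of the 21 pairs passed the threshold by Pearson's r (permutation test, 100000 resamples, two-sided, Benjamini-Hochberg adjustment over the pairs). Since the 8 libraries low in smooth muscle lie low in both Etv1 and Kcnn3, the coefficients given here are those of the other 75 mice, over which 11 pairs passed by Pearson's r and 10 by Spearman's rho too. The adjusted p beside each r belongs to it, and the rho of the pairs named as related had an adjusted permutation p of 0.00433 or lower unless another is given. All genes of a mouse share its library, so that depth and tissue composition are common to both members of a pair.

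Etv1 and Kcnn3 had an r of 0.75 and a rho of 0.75 (adjusted permutation p = 0.000105 for both), with 0.64, 0.66 and 0.90 within the 3 batches. The relation stayed at 0.76 without the 2 mice farthest from the median of Etv1. Among the Cajal cell genes, Ano1 and Etv1 followed with an r of 0.52 (rho 0.52, adjusted permutation p = 0.000105, batches 0.21, 0.59 and 0.73, without the 2 farthest mice 0.49). Ano1 was also related to Kcnn3 with an r of 0.45 (rho 0.46, adjusted permutation p = 0.000315, batches 0.34, 0.26 and 0.64, without the 2 farthest mice 0.40). Etv1 was further related to Pdgfra with an r of 0.51 (rho 0.49, adjusted permutation p = 0.00014, batches 0.43, 0.40 and 0.64, without the 2 farthest mice 0.50). Ano1 and Pdgfra had an r of 0.33 (rho 0.29, adjusted permutation p = 0.00929 for r and 0.0286 for rho, batches 0.16, 0.25 and 0.51, without the 2 farthest mice 0.22).

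Kit was related to Kcnn3 with an r of 0.45 (rho 0.44, adjusted permutation p = 0.00033, batches 0.33, 0.48 and 0.53, without the 2 farthest mice 0.40). It was related to Etv1 with an r of 0.42 (rho 0.39, adjusted permutation p = 0.00033, batches 0.22, 0.42 and 0.58, without the 2 farthest mice 0.34). With Ano1 its r of 0.28 (rho 0.25, adjusted permutation p = 0.0352 for r and 0.0599 for rho) dropped to 0.13 without the 2 farthest mice. Kit and its ligand were not detectably related (r = 0.13, rho = 0.11, adjusted permutation p = 0.412), nor were the 2 receptor kinases Kit and Pdgfra (r = 0.060, rho = -0.064, adjusted permutation p = 0.756). For Kit and Pdgfra the batches went different ways, at -0.45, -0.0047 and 0.50.

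Within the PDGFRA cell group, Pdgfra and Kcnn3 had an r of 0.40 (rho 0.36, adjusted permutation p = 0.000814, batches 0.10, 0.42 and 0.65, without the 2 farthest mice 0.36). P2ry1 was related to neither Pdgfra (r = -0.033, rho = 0.14, adjusted permutation p = 0.862) nor Kcnn3 (r = 0.014, rho = 0.00046, adjusted permutation p = 0.947) at a detectable level. With Ano1 its r of -0.23 (rho -0.20, adjusted permutation p = 0.0994 for r and 0.16 for rho) passed the threshold by r alone and was -0.11 without the 2 farthest mice. Over the 75 mice its one relation by both coefficients was with Kitl, at an r of 0.44 (rho 0.36, adjusted permutation p = 0.00033, batches 0.57, 0.33 and 0.32, without the 2 farthest mice 0.32).

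The 7 genes were also set against 13 cell type marker scores, and of the 91 relations over the 75 mice 43 passed the threshold by r and 36 by rho too. Kcnn3 and Etv1 varied most with the enteric neuron score among these scores, the mean log2 CPM of neuronal genes such as Elavl4 and Ret. The coefficient over the 75 mice was 0.77 for Kcnn3 (rho 0.75, batches 0.75, 0.74 and 0.81, without the 2 farthest mice 0.78) and 0.61 for Etv1 (rho 0.59, batches 0.60, 0.51 and 0.69, without the 2 farthest mice 0.60), each with an adjusted permutation p of 8.27e-05 over 91 relations. With the enteric glia score the values were 0.58 for Kcnn3 (rho 0.59, batches 0.52, 0.56 and 0.73, without the 2 farthest mice 0.58) and 0.48 for Etv1 (rho 0.47, batches 0.49, 0.42 and 0.57, without the 2 farthest mice 0.45). The subepithelial PDGFRA fibroblast score, whose markers include Foxl1 and Bmp5, gave 0.54 for Etv1 (rho 0.48, batches 0.31, 0.33 and 0.87, without the 2 farthest mice 0.54) and 0.48 for Kcnn3 (rho 0.39, batches 0.15, 0.37 and 0.88, without the 2 farthest mice 0.45). These 4 relations also had an adjusted permutation p of 8.27e-05. With the smooth muscle score the values were 0.53 for Kcnn3 (rho 0.50, batches 0.41, 0.34 and 0.81, without the 2 farthest mice 0.52) and 0.51 for Etv1 (rho 0.48, batches 0.38, 0.39 and 0.72, without the 2 farthest mice 0.47), with adjusted permutation p = 8.27e-05 and 0.00014. Etv1 was further related to the endothelial score at 0.48 (rho 0.50, adjusted permutation p = 0.00014, batches 0.41, 0.37 and 0.59, without the 2 farthest mice 0.49), and the remaining coefficients of both genes lay between -0.26 and 0.37. Kit had its highest coefficient with the neuron score as well, 0.41 (rho 0.39, adjusted permutation p = 0.00134, batches 0.25, 0.41 and 0.56, without the 2 farthest mice 0.33). It was related to the glia score at 0.35 (rho 0.35, adjusted permutation p = 0.00724, batches 0.29, 0.31 and 0.51, without the 2 farthest mice 0.41). With the endothelial score its r of 0.29 (rho 0.23, adjusted permutation p = 0.0291 for r and 0.101 for rho) passed by r alone, as did its r of -0.23 with B cells (rho -0.23, adjusted permutation p = 0.0907 for r and 0.108 for rho). With the epithelial score it passed by rho alone (r = -0.026, rho = -0.34, adjusted permutation p = 0.837 for r and 0.0112 for rho), and r was -0.43 without the 2 farthest mice. With smooth muscle Kit had an r of 0.031 (rho 0.019, adjusted permutation p = 0.826). Where a gene is named here as related to a score, its rho had an adjusted permutation p of 0.0137 or lower unless another is given.

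Pdgfra varied most with scores of stromal, vascular and immune cells. Its coefficient was 0.77 with the fibroblast score (rho 0.77, batches 0.77, 0.81 and 0.78, without the 2 farthest mice 0.78) and 0.74 with the score of subepithelial PDGFRA fibroblasts (rho 0.72, batches 0.70, 0.78 and 0.74, without the 2 farthest mice 0.69). It was 0.71 with the endothelial score (rho 0.61, batches 0.71, 0.56 and 0.80, without the 2 farthest mice 0.63) and 0.65 with the macrophage score (rho 0.66, batches 0.65, 0.70 and 0.62, without the 2 farthest mice 0.64). All 4 had an adjusted permutation p of 8.27e-05. With smooth muscle it was 0.45 (rho 0.39, adjusted permutation p = 0.000364, batches 0.40, 0.40 and 0.55, without the 2 farthest mice 0.43) and with mesothelium 0.40 (rho 0.39, adjusted permutation p = 0.00206, batches 0.36, 0.46 and 0.38, without the 2 farthest mice 0.46). With adipocytes it was 0.32 (rho 0.36, adjusted permutation p = 0.0185, batches 0.51, 0.42 and 0.043, without the 2 farthest mice 0.35). With the epithelial score its r of 0.37 (rho 0.14, adjusted permutation p = 0.0127 for r and 0.369 for rho) passed by r alone and was 0.069 without the 2 farthest mice. It also passed by r alone with neurons (r = 0.30, rho = 0.18, adjusted permutation p = 0.0253 for r and 0.218 for rho) and glia (r = 0.27, rho = 0.17, adjusted permutation p = 0.0494 for r and 0.229 for rho). The part of these cells in the level of Pdgfra was not tested.

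Ano1 was related to the smooth muscle score at 0.40 (rho 0.41, adjusted permutation p = 0.00172, batches 0.32, 0.30 and 0.54, without the 2 farthest mice 0.41). It was related to the endothelial score at 0.47 (rho 0.37, adjusted permutation p = 0.000195, batches 0.48, 0.16 and 0.60, without the 2 farthest mice 0.31) and to deep crypt secretory cells, which sit in the epithelium, at -0.37 (rho -0.43, adjusted permutation p = 0.00474, batches -0.50, -0.27 and -0.37, without the 2 farthest mice -0.41). With the epithelial score itself the r of Ano1 was 0.24 (rho 0.069, adjusted permutation p = 0.0907 for r and 0.69 for rho), past the threshold by r alone, and 0.014 without the 2 farthest mice. Lower coefficients that passed by both measures were 0.37 with subepithelial PDGFRA fibroblasts, 0.32 with fibroblasts, 0.30 with mesothelium, 0.30 with neurons and 0.27 with glia (rho 0.30, 0.29, 0.29, 0.26 and 0.25, highest adjusted permutation p = 0.0763).

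P2ry1 and Kitl had their largest coefficients in size with the epithelial score. These were -0.44 for P2ry1 (rho -0.33, adjusted permutation p = 0.000512, batches -0.49, -0.081 and -0.64, without the 2 farthest mice -0.34) and -0.30 for Kitl (rho -0.33, adjusted permutation p = 0.0352, batches -0.40, -0.30 and -0.33, without the 2 farthest mice -0.30). P2ry1 also passed by both measures with smooth muscle at -0.26 (rho -0.27, adjusted permutation p = 0.0546 for r and 0.056 for rho) and mast cells at -0.25 (rho -0.26, adjusted permutation p = 0.064 for r and 0.065 for rho), and Kitl with deep crypt secretory cells at -0.27 (rho -0.25, adjusted permutation p = 0.0494 for r and 0.0763 for rho). With subepithelial PDGFRA fibroblasts P2ry1 passed by rho alone (r = 0.16, rho = 0.27, adjusted permutation p = 0.256 for r and 0.0502 for rho).

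**Figure D3:**
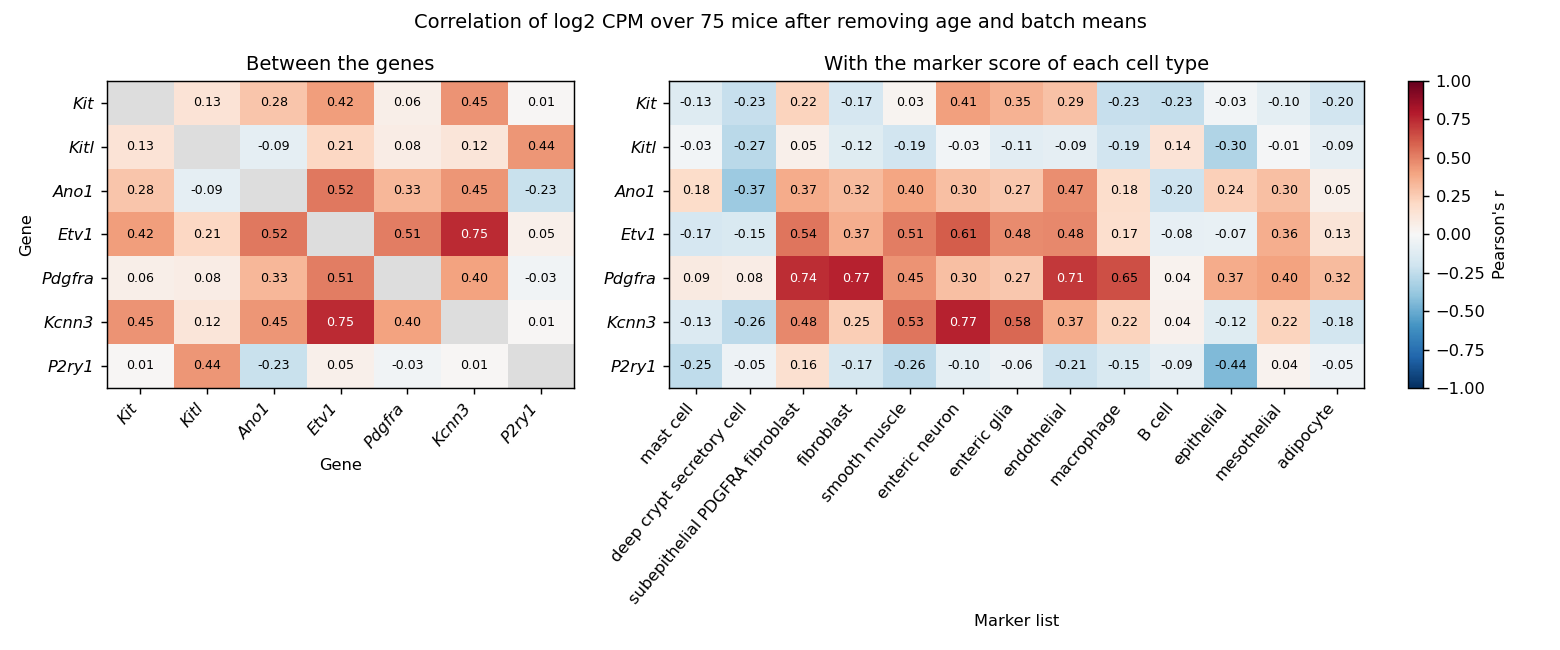
Pearson's r of log2 CPM over 75 mice, after removal of age and batch means, between the 7 genes (left) and between each gene and 13 marker scores (right), on a colour scale from -1 (blue) to 1 (red). The darkest cells are Etv1 with Kcnn3 (0.75), Kcnn3 with enteric neurons (0.77) and Pdgfra with fibroblasts (0.77), while the rows of Kitl and P2ry1 stay between -0.44 (P2ry1 with epithelium) and 0.44 (with each other).

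The 8 libraries low in smooth muscle were low in some of the 7 genes and not in others. Their median was 6.67 CPM for Kcnn3 and 8.12 CPM for Etv1, lower than the lowest 24-month mouse in each. Ano1 had a median of 71.3 CPM there, and the Kit median of 152 CPM was close to its medians by age. Kitl, Pdgfra and P2ry1 had medians of 121, 73.9 and 51.7 CPM in these libraries. The plot against the smooth muscle score shows these libraries to the left of its dashed line.

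**Figure D4:**
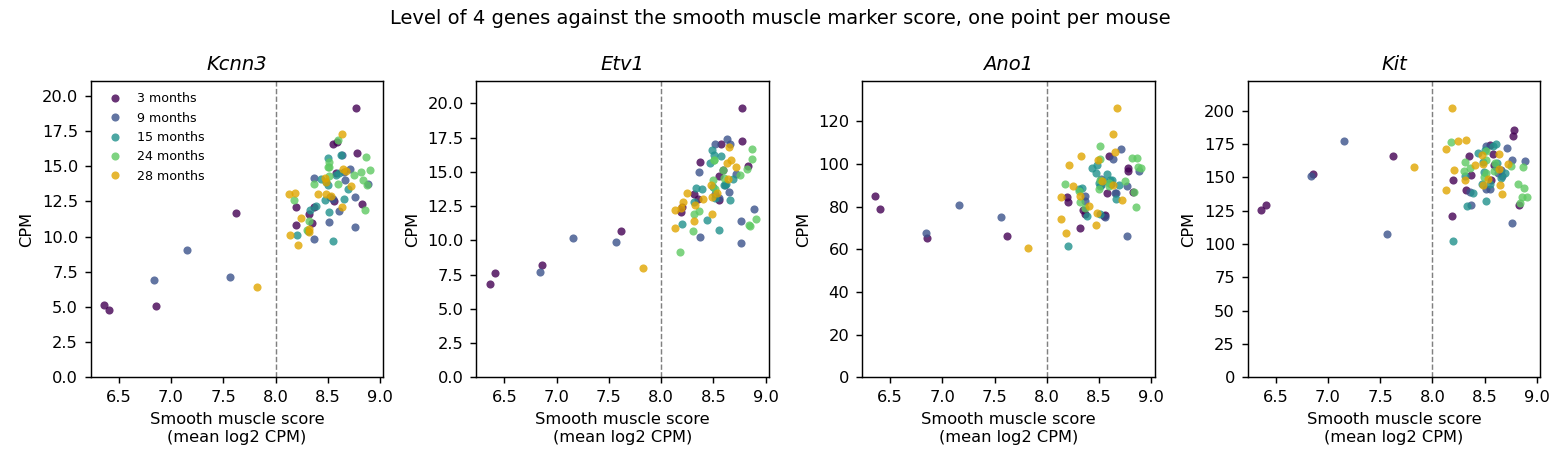
CPM (vertical axis, from 0) of Kcnn3, Etv1, Ano1 and Kit against the smooth muscle score (horizontal axis, mean log2 CPM of 9 markers), with 1 point for each mouse coloured by age in months and a dashed line at 8. The 8 libraries to the left of the line lie low for Kcnn3 (4.79 to 11.7 CPM) and Etv1 (6.84 to 10.6 CPM), while Kit ranges from 108 to 178 CPM there.

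The genes most like each of the 7 were looked up among 14961 other genes by their Pearson's r over the 83 mice, and since they were chosen for that value it is a description. Kcnn3 was most like Map1b (0.92), a microtubule protein of neurons, Cnr1 (0.92), the cannabinoid receptor, and Nos1 (0.92), the enzyme of nitric oxide in inhibitory enteric neurons, with 0.84, 0.84 and 0.78 over the 75 mice. Etv1 was most like the integrin gene Itga1 (0.90), Zfhx4 (0.89) and Kcnn3 itself (0.89), with 0.79, 0.83 and 0.75 over the 75 mice. Pdgfra was most like the laminin chains Lamb1 (0.85) and Lamc1 (0.83) and the thrombin receptor F2r (0.83), which kept 0.86, 0.87 and 0.85 over the 75 mice.

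Ano1 was most like Prkacb (0.81), a catalytic subunit of protein kinase A, Parva (0.76) and Clic6 (0.76). Among the genes most like Kitl were Kpna4 (0.77) and Eps15 (0.77). For Kit the nearest were Slc36a1 (0.71), 5330417C22Rik (0.70) and Ptprn2 (0.68), and for P2ry1 they were Tgfbr1 (0.64), Rnf146 (0.64) and Acvr2a (0.63). No gene of the Cajal cell group was among the nearest 3 of another, and Etv1 and Kcnn3 were the one case in which 1 of the 7 was near to another.

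Because Etv1 and Kcnn3 moved together, the 250 bases before their RefSeq start sites are shown, in GRCm38.p6, at chr12:38779832-38780081 for the first start of Etv1 and chr3:89519914-89520163 for Kcnn3, both on the plus strand and free of annotated exons. The Etv1 window lies inside the gene as placed by the GENCODE annotation, which starts at chr12:38779380. All letters are in lower case because no motif that was searched is in them.
Etv1: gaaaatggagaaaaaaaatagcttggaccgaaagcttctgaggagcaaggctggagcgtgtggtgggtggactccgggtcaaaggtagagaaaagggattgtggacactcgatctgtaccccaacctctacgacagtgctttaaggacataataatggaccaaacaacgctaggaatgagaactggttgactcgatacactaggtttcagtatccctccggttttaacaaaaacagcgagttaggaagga
Kcnn3: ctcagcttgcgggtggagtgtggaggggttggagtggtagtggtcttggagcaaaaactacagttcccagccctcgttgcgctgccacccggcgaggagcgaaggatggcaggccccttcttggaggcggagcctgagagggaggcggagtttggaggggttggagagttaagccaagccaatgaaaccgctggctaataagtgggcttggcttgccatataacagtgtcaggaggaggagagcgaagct
The GC content was 46.4% for Etv1 and 58.8% for Kcnn3, beside a median of 52.4% over 32851 such windows, 54.4% for Pdgfra, and 69.2% to 72.0% for Kit, Kitl, Ano1 and P2ry1. The letters of an ETS core (CCGGAA), a GC box (GGGCGG) and a TATA box (TATAAA) were searched on both strands. They are in 12.03%, 32.7% and 12.4% of all windows and in neither of the 2 shown. The window of a second RefSeq start of Etv1 (chr12:38783461-38783710, GC content 44.4%), which overlaps annotated exons, holds the TATA box letters. Among the other genes, the window of Kitl holds all 3 motifs, those of Kit, Ano1 and P2ry1 the GC box alone, and that of Pdgfra none of them.

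Other genes of the same pathways were compared at 28 against 3 months, and their calls are given as shares of each list beside the background of 49.4%, or 41.7% without the 8 libraries. Of 15 other genes of Cajal cell pacemaking, such as the calcium channels and stores that drive the rhythm, 3 were higher and 4 lower at 28 than at 3 months, with a list median of -0.039. Cacna1h, a T-type calcium channel, fell by 0.34 (SE 0.060, adjusted p = 3.07e-06), and Atp2a2, the calcium pump of the store, fell by 0.16 (SE 0.051, adjusted p = 0.00662). Itpr2, a release channel of that store, fell by 0.21 (SE 0.069, adjusted p = 0.010), and Thbs4 rose by 0.44 (SE 0.12, adjusted p = 0.00194). The calls were 46.7% of the list, near the background, and without the 8 libraries 4 were left, 2 in each direction. Itpr2 lost its call there (-0.15, adjusted p = 0.115), while Cacna1h, Atp2a2 and Thbs4 kept theirs.

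Of 24 genes of KIT and PDGF receptor signaling, 7 were higher and 6 lower, which is 54.2% of the list, with a median of 2e-05 and with 7 higher and 3 lower without the 8 libraries. The adaptor Gab2 rose by 0.41 (SE 0.047, adjusted p = 4.16e-11) and the phospholipase Plcg1 by 0.22 (SE 0.030, adjusted p = 4.54e-09). The sister receptor Pdgfrb rose by 0.35 (SE 0.059, adjusted p = 1.55e-06). Among the ligands Pdgfc fell by 0.44 (SE 0.057, adjusted p = 2.28e-09). The other ligands, named after their values were seen, went both ways, with Pdgfb at -0.22 (adjusted p = 0.00372), Pdgfd at 0.25 (adjusted p = 0.00266) and Pdgfa at 0.020 (adjusted p = 0.777).

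Of 12 target genes of the ERK pathway, which KIT feeds, 4 were higher and 3 lower, or 58.3%, with a median of -0.021, and without the 8 libraries 2 were left, both higher. The phosphatase Dusp4 rose by 0.43 (SE 0.095, adjusted p = 0.000153) and the feedback inhibitor Spry1 by 0.21 (SE 0.057, adjusted p = 0.00217). Etv4, a relative of Etv1, rose by 0.30 (SE 0.12, adjusted p = 0.0347), and the cyclin Ccnd1 fell by 0.15 (SE 0.063, adjusted p = 0.0436). Without the 8 libraries Etv4 (0.25, adjusted p = 0.133) and Ccnd1 (-0.084, adjusted p = 0.31) lost their calls, and Dusp4 and Spry1 were the pair left.

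Of 25 genes listed under purinergic and nitrergic inhibition, 10 were higher and 1 lower, or 44.0%, with a median of 0.098. Without the 8 libraries 7 were higher and 2 lower. The list includes receptors and channels beyond the path from P2ry1 to Kcnn3, and in which cells they changed was not tested. Kcnn4, a potassium channel related to Kcnn3, rose by 0.25 (SE 0.045, adjusted p = 4.36e-06) and P2ry2, a relative of P2ry1, by 0.25 (SE 0.070, adjusted p = 0.00298). The ATP-degrading enzyme Entpd1 rose by 0.31 (SE 0.061, adjusted p = 2.05e-05) and Gucy1a1, a subunit of the nitric oxide receptor, by 0.34 (SE 0.092, adjusted p = 0.00163). Of 9 relatives of Ano1 in the anoctamin family 2 were higher and 2 lower, or 44.4%, with a median of -0.037 and with 1 in each direction without the 8 libraries. Ano7 fell by 0.34 (SE 0.041, adjusted p = 1.56e-10) and Ano8 by 0.14 (SE 0.044, adjusted p = 0.00706), while Ano10 rose by 0.13 (SE 0.034, adjusted p = 0.00132) and Ano6 by 0.12 (SE 0.053, adjusted p = 0.0605). The calls of Ano8 (-0.095, adjusted p = 0.118) and Ano6 (0.082, adjusted p = 0.198) were lost without the 8 libraries.

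**Figure D5:**
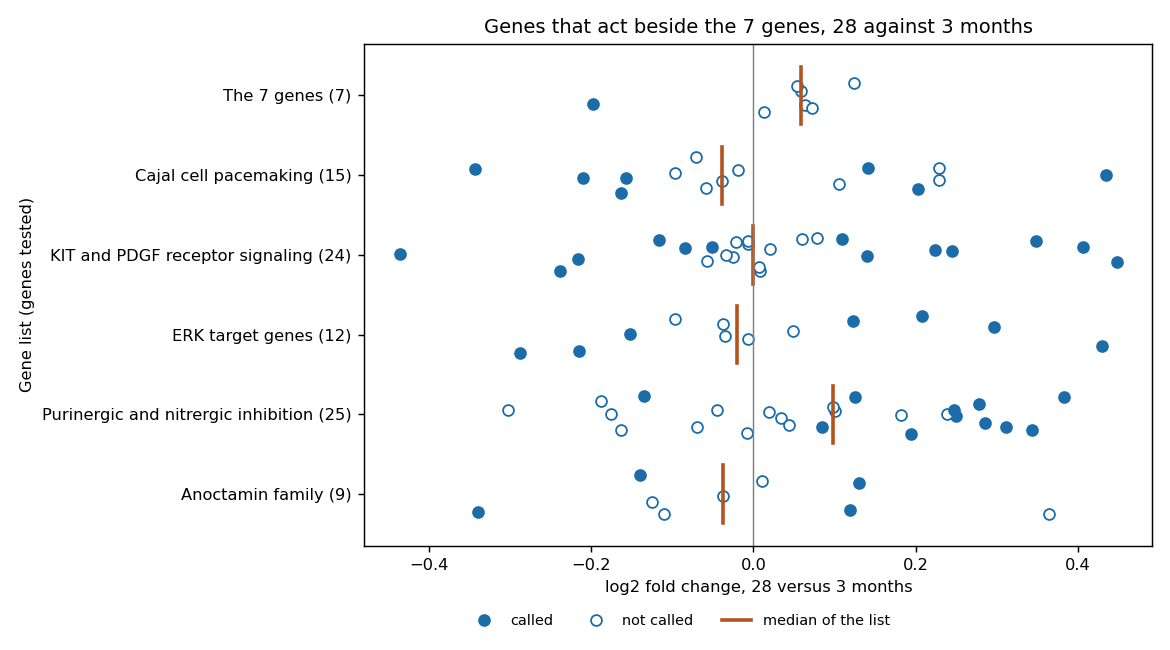
Log2 fold change at 28 against 3 months (horizontal axis) of the 7 genes and of the genes in 5 lists (rows, with the number tested), filled where called, with a bar at the median of each row. The 7 genes lie between -0.20 and 0.12 with 1 filled point (Kitl), and most filled points of the purinergic and nitrergic row lie to the right of 0.

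The markers of the cells around the interstitial cells moved as follows at 28 against 3 months, where 23.5% of all genes tested were called higher and 25.9% lower. Smooth muscle had 0 of 9 called, enteric neurons 3 of 10 called and all lower, and glia 1 higher and 1 lower of 6. Endothelial cells had 5 of 7 higher and macrophages 7 of 8 higher. Fibroblasts had 2 higher and 2 lower of 7, and subepithelial PDGFRA fibroblasts 2 higher and 2 lower of 8. The 4 mesothelial markers had means of 0.54 to 1.96 CPM, and as with the mast cell markers their calls are not counted here. Their summed level was 1.29 to 5.94 CPM (median 2.86) at 3 months and 2.67 to 13.7 CPM (median 7.12) at 28 months. Epithelium had 3 of 8 lower, deep crypt secretory cells 3 lower and 1 higher of 5, B cells 4 of 5 lower, and adipocytes 1 of 4 higher. In the 75 mice outside the 8 libraries, where 3862 of 18427 genes were called higher and 20.7% lower, all 10 neuron markers were called lower, 1 glia marker was higher and 2 lower, and 0 of 9 smooth muscle markers were called. Endothelial cells then had 5 higher, macrophages 6 higher, fibroblasts 1 higher and 3 lower, and subepithelial PDGFRA fibroblasts 2 higher and 2 lower. Epithelium had 1 lower, deep crypt secretory cells 3 lower, B cells 4 lower and adipocytes 1 higher. The genes Kit, Etv1, Pdgfra, Kcnn3 and P2ry1 stayed short of the threshold in these mice. In the comparison of 24 with 3 months, where 16.7% of all genes were called higher and 17.8% lower, macrophages had 7 of 8 higher, fibroblasts 3 of 7 and subepithelial PDGFRA fibroblasts 2 of 8. Epithelium had 4 of 8 lower, enteric neurons 1 of 10 and B cells 1 of 5, glia had 1 higher and 1 lower, and no marker of deep crypt secretory cells or adipocytes was called. The part of these cells in the levels of the 7 genes was not tested.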

How the data were processed

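The sequencing of polyA-enriched, stranded libraries from 83 mice is summarised in 1 table of counts. The authors used cutadapt (2.8) for trimming, PrinSeq Lite for filtering, HISAT2 (2.1.0) for alignment to GRCm38 and SAMtools (1.9) to keep unique alignments, and they deposited the raw counts of read pairs per gene and strand made with featureCounts of Subread (2.0.1), without normalization or pooling. Age was taken from the labels, every mouse is its own replicate, and no mouse was left out.

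Gene symbols, positions and merged exon lengths came from GENCODE M21 (GRCm38), an earlier release than the one used for counting, which covered 37652 of 37764 genes. Counts were fitted with edgeR 4.0.16 in R 4.3.3 (filterByExpr by age, TMM, quasi-likelihood F-test, age group and library batch over all mice, Benjamini-Hochberg adjustment over 18325 genes, threshold 0.1). Straight lines and their departures (quadratic to quartic terms) were tested in the same way. CPM used TMM library sizes, log2 CPM a prior count of 2, and TPM the exon lengths. Correlations, with 100000 permutations, were made in Python 3.11.15 with numpy 2.4.6, pandas 2.3.3 and scipy 1.17.1. The smallest permutation p is 1e-05. In all 649 pairs of same-age mice the spread exceeded counting noise (genes with at least 50 counts), so none looked like a library deposited again. The fit was tested on simulated data.

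The 7 genes, the gene lists, the marker lists and the tests were chosen with earlier results of these data known. Of the lists, at most the 4 genes with the lowest adjusted p at 28 against 3 months and a mean CPM of at least 1 are named, and the 3 genes most like each of the 7, of which 1 is not reported here. Irag1 matched no symbol and entered as Mrvi1. The alternatives were DESeq2 1.42.0, its size factors, 2 other filters, a model without batch, a replicate-number block, a threshold of 0.05, a smooth muscle covariate, the 2 ages alone and, chosen after seeing the data, the 75 mice without the libraries low in smooth muscle. RefSeq promoter windows (GRCm38.p6) were matched by symbol for all 7 genes.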

Additional observations from a re-analysis of the deposited data

How the results depend on the processing

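The counts of the 7 genes called and of their related pairs were recomputed under each alternative, and 125 of 131 such counts stayed within 1.5 times. At 28 against 3 months 2 genes were called in place of 1 by DESeq2 (Ano1 at 0.13, adjusted p = 0.0976) and with at least 10 counts in every mouse (2 genes, Ano1 at 0.13, adjusted p = 0.0906). At 24 against 3 months 1 gene, Kitl, was left in place of 2 without the libraries low in smooth muscle. With the smooth muscle score as a covariate, 1 gene, Kitl, was left in place of 2 for the straight line, and Ano1 lost its calls for the line (0.0033 per month, adjusted p = 0.223) and at 24 months (0.093, adjusted p = 0.367). Kcnn3 was called at 24 against 9 months (1 gene) in a fit of the 2 ages alone, and Kitl at 28 against 15 months (1 gene) without a batch term. The calls of Kitl at 24 and 28 against 3 months held under every alternative run for them.

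The direction turned for 10 values of genes that were not called with all mice and no covariate. At 28 against 3 months, Etv1 was at -0.0071 without a batch term, -0.098 with the smooth muscle covariate and -0.11 without the 8 libraries, and Kcnn3 was at -0.072 and -0.097 under the latter 2. At 24 against 3 months, Kcnn3 was at -0.019 with the covariate, Kit at -0.0079 with it and -0.0089 without the libraries, and Etv1 at -0.18 with it (adjusted p = 0.0384, past the threshold) and -0.14 without the libraries. The cause was not tested.

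The replicate numbers do not pair the mice: over 161 pairs of mice of different ages that share a number, the median correlation of their deviations was 0.010 and 27 were over 0.1. With the replicate number as a block, 3 genes were called at 24 against 3 months in place of 2, with Kcnn3 added at 0.28 (adjusted p = 0.0748), and the other counts of the 7 genes did not change. Of 82 mice with such a partner, 3 correlated best with their own number.

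The 12 related pairs over 83 mice became 10 with batch means alone removed, 10 with DESeq2's size factors and 11 without the 8 libraries. At this spread between mice the tests could miss changes of the size of the intervals given, up to 0.46 on the log2 scale for Kcnn3.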
